A study of Homo sapiens with 12 samples.

Results

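The human genome holds many pseudogene copies of U6, the small nuclear RNA of the spliceosome, and the deposited count table has 1271 rows named for one (RNU6-, a number and P). The rows described here are the 37 of them chosen by their summed count, 120 or more over 12 libraries, with RNU6-105P left out by the rule that chose them. They make up 2.91% of the U6 pseudogene rows in a table of 61255 rows. The libraries came from Huh-7.5, an established human hepatocellular carcinoma line, in 3 engineered versions labelled APEX-NES, APEX-NLS and APEX-G3BP1. APEX is a peroxidase used for proximity labelling, NES commonly stands for a signal that sends a protein out of the nucleus and NLS for one that sends it in, while stress granules have G3BP1 as a core protein. Each version was mock treated or kept for 45 minutes with 0.5 mM sodium arsenite, which causes oxidative stress, shuts down translation and induces stress granules, with 2 libraries in each of the 6 groups. All groups share the Huh-7.5 background and an APEX transgene, and no line without APEX was analysed here. The labels name neither the promoter nor the number of clones behind a line, so a difference between lines and one between clones cannot be told apart. They do not say that the 2 libraries of a group came from separate cultures, so p-values measure the spread between these libraries, which may be technical.

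U6 RNA is made by RNA polymerase III from a handful of intact genes, pairs with the 5′ splice site through its ACAGAGA motif and helps form the catalytic centre of the spliceosome. Its RNA was copied back into the genome many times by retrotransposition, which left short copies without the promoter that lies upstream of a true U6 gene. Such copies lie within introns and between genes on either strand, so a count in one can come from a longer RNA that runs through it.

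The members are diverged copies. Their identity to the intact gene RNU6-1 in a global alignment of the GENCODE 29 (GRCh38) sequences had a median of 79.4% and ran from 55.1% in RNU6-840P to 90.7% in RNU6-1024P, against a median of 82.2% over all 1271 rows. A single member reached 90% identity, where 115 of all rows (9.05%) did. No member had another row of identical sequence, whereas 50 of the 1271 rows did. ACAGAGA was present on the row's strand in 15 members (40.5%) and in 686 of all rows (54%). On the other strand it was found in 0 members and in 8 of all rows. Member lengths ran from 65 to 110 bases with a median of 106. The intact genes were almost uncounted in these ribosome-depleted libraries: RNU6-1, RNU6-2, RNU6-7, RNU6-8 and RNU6-9 had totals of 0 to 2 counts over the 12 libraries. The 18 other spliceosomal small nuclear RNA genes in the table had totals of 0 to 69.

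Counts were thin and uneven. Of the 1271 U6 pseudogene rows, 789 had no count in any library, 444 had at least 1 but fewer than 120 counts and 38 reached 120, which is 2.99% of them against 17.4% of all rows of the table. The 37 members held 7537 counts, 41% of the counts in U6 pseudogene rows and 0.0486% of all counts. Member totals, which the rule used, ran from 120 to 910 with a median of 154. Just inside the limit lay RNU6-68P with 121 counts and RNU6-1208P and RNU6-1282P with 120 each. Just outside it lay RNU6-135P with 117 and RNU6-824P and RNU6-601P with 114 each. RNU6-105P, in an exon of ZNF638 on the opposite strand, had 241.

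The 12 libraries held 1090308 to 1461067 counts, so 1 count was worth 0.693 to 0.961 CPM (counts scaled to a common library size, with TMM factors) and a count of 0 allowed up to 2.08 to 2.88 CPM, by counting error only. The 2 libraries of each group differed beyond counting noise in all 6 groups (chi-square per degree of freedom of 1.11 to 1.39). The 15 hepatocyte and hepatoma marker rows summed to 296 to 428 counts in mock and 345 to 533 in arsenite libraries, with APOH at 0. The leukocyte list (4 rows, none at 0) summed to 24 to 32 and 15 to 27, and the endothelial list (3 rows, VWF at 0) to 0 to 14 and 3 to 10. The fibroblast list (5 rows, LUM at 0), led by COL3A1, moved with the treatment, at 6 to 16 counts in mock and 41 to 73 in arsenite libraries, and its part in the results below was not tested. In whole-cell libraries, fewer cells carrying an RNA and less of it per cell cannot be told apart.

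Most members lay inside a gene on the other strand. A host is here a protein coding or long noncoding gene of GENCODE 29 whose span holds the whole row. An opposite-strand host was present for 32 of the 37 members (86.5%), against 405 of all 1271 rows (31.9%). Of these 32, 4 also had a same-strand host: RNU6-1024P, RNU6-1330P, RNU6-564P and RNU6-398P. A same-strand host alone was found for 1 member (2.7%), RNU6-77P, against 324 of all rows (25.5%). The remaining 4 members, RNU6-415P, RNU6-81P, RNU6-138P and RNU6-909P, had no host. Seen from the other side, 29 of the 355 rows with only an opposite-strand host reached 120 counts (8.17%). Only 1 of the 324 rows with only a same-strand host did (0.309%), and 4 of the 542 rows without a host (0.738%). At least 1 count was found in 75.2%, 18.5% and 24.9% of those rows, in the same order.

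**Figure D1:**
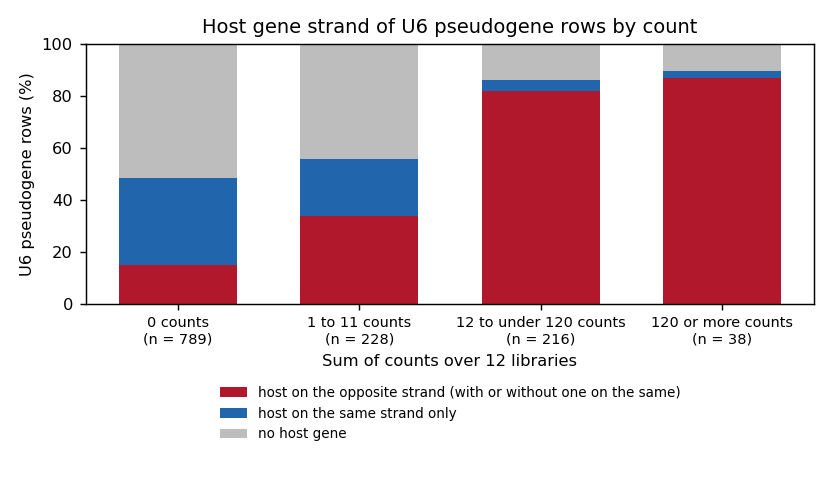
Share of U6 pseudogene rows (vertical axis, percent) with a host gene on the opposite strand, on the same strand only or with none, by the row's summed count over 12 libraries. The opposite-strand share was 15% among 789 rows with 0 counts, 33.8% at 1 to 11, 81.9% from 12 to under 120 and 86.8% among the 38 rows at 120 or more, which here include RNU6-105P.

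The opposite-strand share was larger in each higher count class up to the open class of 120 or more. Of the 5 members with 240 or more counts, 2 (40%) had such a host. RNU6-105P, which is in that open class but not a member, has 241 counts and such a host. These few rows show no trend within the class. Such a host was found for 15% of rows with 0 counts, 33.8% of those with 1 to 11 counts and 81.9% of those with 12 to under 120. Other families of short-RNA copies had like shares at 120 or more counts: 13 of 15 rows for copies of 7SK, the RNA that holds back the elongation factor P-TEFb, 17 of 19 for copies of 7SL, the RNA of the signal recognition particle, 4 of 4 for copies of Y RNA and 11 of 14 for copies of other small nuclear RNAs. Libraries were made with a kit that keeps the strand of the RNA. The strand setting used in counting is not given in the sources used here, so a row name stands for the row and not for a transcript of that strand. Which RNA gave the counts was not tested.

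Within the opposite-strand hosts, 28 members lay wholly in introns. The other 4 overlapped an annotated exon: RNU6-395P in POLR2D, RNU6-1330P in FAM169A, RNU6-398P in TRMT5 and RNU6-840P in RAD51D. The distance from an intronic member to the nearest exon of its host ran from 513 bases (RNU6-564P in RNF215) to 78767 bases (RNU6-989P in a long noncoding host), with a median of 8973. The members were spread over 18 chromosomes and 33 opposite-strand hosts. The hosts' own rows were not deeply counted, with totals from 5 to 10130 and a median of 91, and 18 of the 33 were under 120. RNU6-216P, for example, had its place in SPCS2, a signal peptidase subunit whose row had 5 counts over all 12 libraries.

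The highest members were mostly those without an opposite-strand host. RNU6-77P led with 910 counts, or 671 CPM per kilobase of row length averaged over the libraries. It lies at chr13:81265747-81265837 (GRCh38, plus strand) in an intron of the long noncoding gene AL353633.1, on the same strand. The nearest protein coding gene on the other strand, SPRY2, is 924796 bases away. RNU6-415P followed with 760 counts and 518 CPM per kilobase. It lies at chr15:78898840-78898936 (minus strand), 707 bases beyond the annotated end of MORF4L1, a chromatin gene of the plus strand.

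RNU6-395P had 483 counts and 302 CPM per kilobase, at chr2:127845236-127845341 (plus strand) in an exon of POLR2D, which encodes a subunit of RNA polymerase II and lies on the minus strand. RNU6-81P had 319 counts and 204 CPM per kilobase, at chr13:63783801-63783904 (plus strand), with no host. RNU6-1106P had 257 counts and 161 CPM per kilobase, at chr6:105045562-105045668 (minus strand) in an intron of LIN28B, an RNA-binding protein that blocks maturation of the microRNA let-7. Of these 5 leading members, which the rule's total set apart, 2 had an opposite-strand host. The lowest level per length was 73.5 CPM per kilobase, in RNU6-1208P.

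Arsenite was compared with mock over the 3 lines together, with edgeR's quasi-likelihood test fitted on the 13108 rows that passed a filter on low counts and adjusted over all of them by the Benjamini-Hochberg method. All 37 members passed the filter. A row was called at an adjusted p under 0.05. By that rule 9 of 37 members changed (24.3%), where 38.0% of all tested rows did. Of the members 8 fell (21.6%, background 18.6%) and 1 rose (2.7%, background 19.4%). The share that fell was near the background and the share that rose was below it, and neither share was itself tested. Members had few counts, with a median total of 154. In simulated data 47% of rows changed 1.5-fold were called, but 18.2% of those with a mean under 20 counts per library. That simulation changed 100 rows per fold size among 13108 and held no line differences, whereas 38.0% were called in the data. The adjustment depends on how many rows change, so the simulated shares are not those expected of members. The part of depth in the members' shares was not tested. DESeq2 called 4 members lower and 0 higher, against 12.8% lower, 15.1% higher and 27.9% in all over the tested rows. With total counts as the only scaling, edgeR called 11 members lower and 1 higher. The share of all tested rows under that scaling is not given here, so these counts describe the members only. The median log2 fold change of the members was -0.26, against -0.01 over all tested rows. It was below 0 in 28 of 37 members, where 51.1% of all tested rows were below 0. The sign was negative in every line for 18 members (48.6%, against 29.5% of all tested rows) and positive in every line for 4 (10.8%, against 28.9%).

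**Figure D2:**
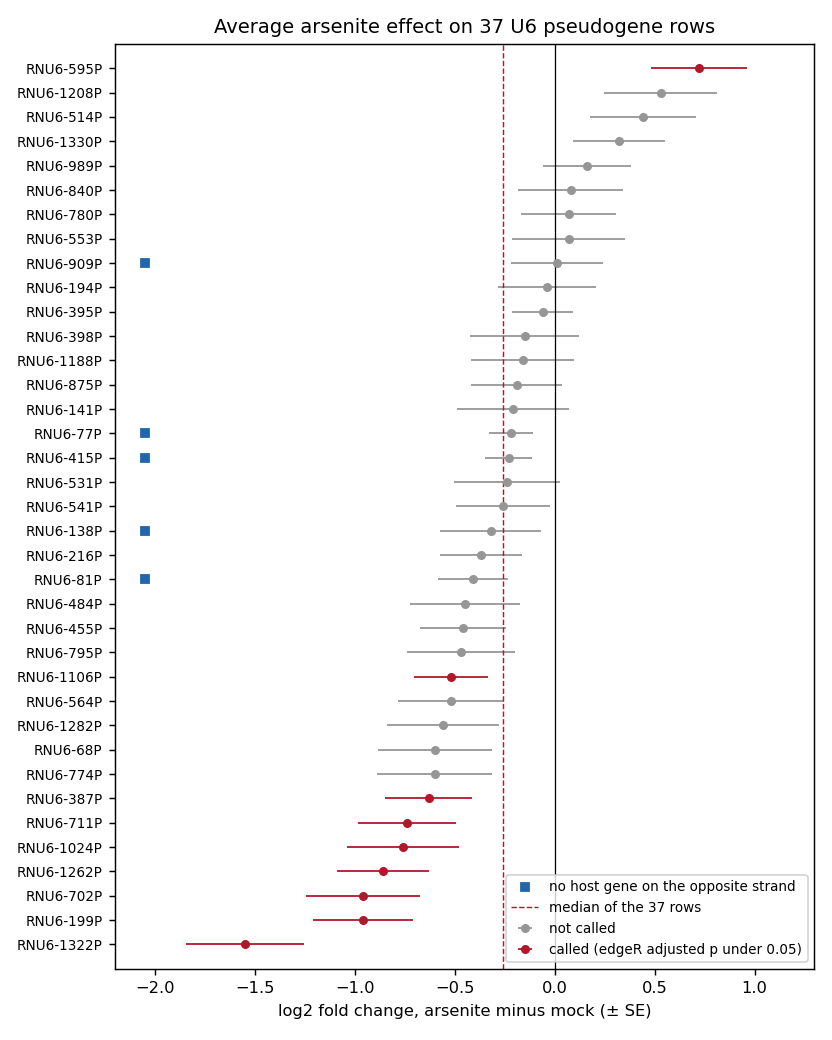
Log2 fold change, arsenite minus mock over 3 lines (horizontal axis, bars ± SE), for each of the 37 members, with called members in red and members without an opposite-strand host marked by a blue square. The 9 called members are 8 to the left of 0, down to -1.55, and RNU6-595P at 0.72, and the dashed median lies at -0.26.

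RNU6-1322P had the largest fall. It lies in an intron of SRPK2, a kinase of SR splicing factors, at chr7:105332790-105332896 (plus strand). Its mock libraries stood at 9.6 and 17.8 CPM in NES, 13.98 and 9.16 in the NLS line and 12.5 and 11.02 in the G3BP1 line. Its arsenite libraries stood at 5.01 and 1.76 CPM in NES, 4.55 and 4.85 for NLS and 6 and 2.38 for G3BP1. Each of the 6 mock libraries lay above all 6 arsenite libraries, which held for no other member and for 4.97% of all tested rows. The reverse, all arsenite above all mock libraries, held for 0 members and for 6.44% of all tested rows. The mean fell from 12.3 ± 3.23 to 4.09 ± 1.65 CPM (SD, n = 6 libraries each). This was a 2.93-fold fall, or -1.55 on the log2 scale (SE 0.297, adjusted p = 8.5e-06 in edgeR).

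**Figure D3:**
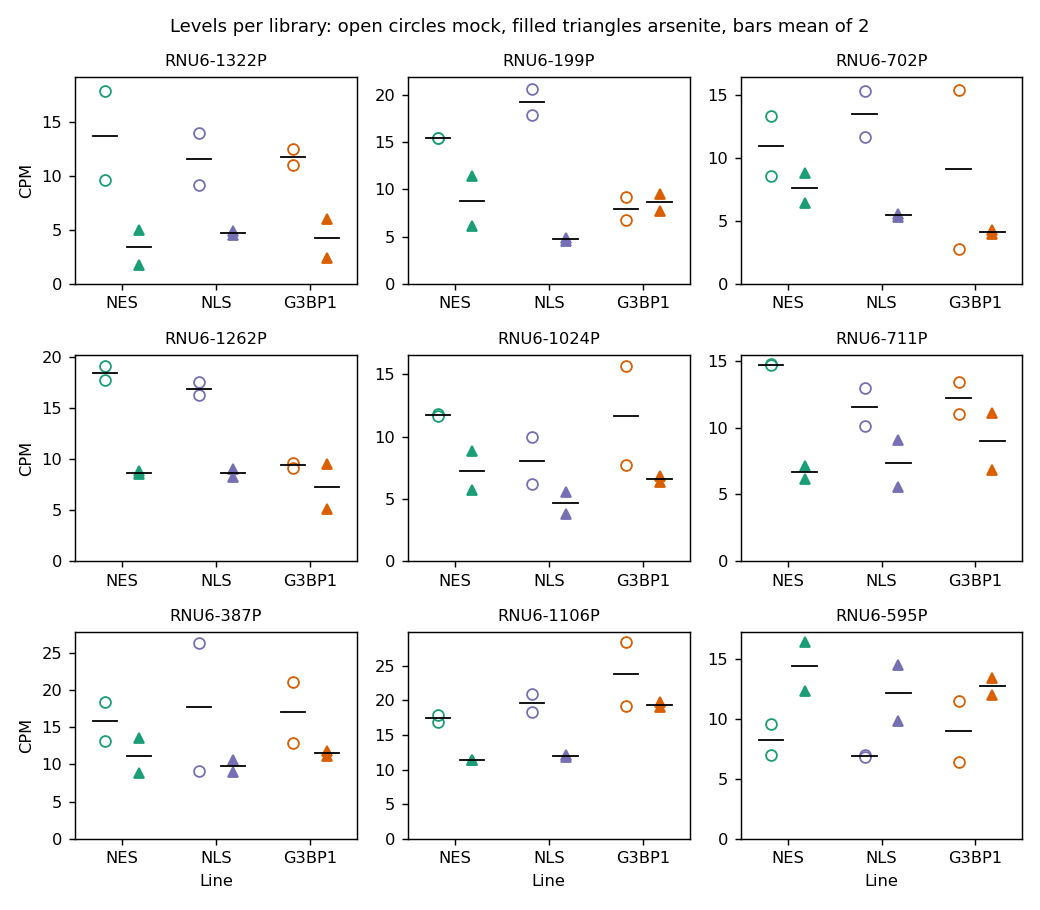
Level in CPM (vertical axis, from 0) of the 9 members called for arsenite, in each library by line, mock as open circles and arsenite as filled triangles, with the mean of 2 as a bar. RNU6-1322P is the only panel in which every circle lies above every triangle, and RNU6-595P the only one in which the triangles lie above the circles in all 3 lines.

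RNU6-199P and RNU6-702P fell by like amounts. RNU6-199P lies in TFCP2, a transcription factor gene, and stood at 15.5 and 15.5 CPM in NES mock and 17.9 and 20.6 in NLS mock libraries, but at 6.7 and 9.2 in G3BP1 mock. After arsenite it stood at 11.4 and 6.2 CPM in NES libraries, 4.55 and 4.85 in NLS libraries and 7.7 and 9.5 in G3BP1 libraries. Mock lay above arsenite in NES and NLS, and the groups overlapped in G3BP1. The log2 fold change over the lines was -0.96 (SE 0.249, edgeR adjusted p = 0.00107). RNU6-702P lies in an intron of GATA6, an endoderm and liver transcription factor. It ran from 2.8 through a median of 12.4 to 15.4 CPM in mock and from 3.96 through 5.4 to 8.8 in arsenite libraries, or -0.96 on the log2 scale (SE 0.287, adjusted p = 0.00474 in edgeR). Its lowest mock library was 1 of the 2 G3BP1 mock libraries.

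A further 2 falls were in introns of an amino acid transporter and of a stress kinase. RNU6-1262P, in SLC7A6, ran from 9.2 through 16.9 to 19.2 CPM in mock and from 5.1 through 8.7 to 9.5 in arsenite libraries. Mock and arsenite overlapped in G3BP1, and mock lay above arsenite in the other lines. Its log2 fold change was -0.86 (SE 0.228, edgeR adjusted p = 0.0014). RNU6-711P, in TAOK1, a MAP kinase kinase kinase, ran from 10.1 through 13.2 to 14.7 CPM in mock and from 5.5 through 7.0 to 11.1 in arsenite libraries, or -0.74 on the log2 scale (SE 0.245, adjusted p = 0.0107 in edgeR). Its mock and arsenite groups overlapped in G3BP1 alone.

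The other 3 falls were less stable. RNU6-1024P lies in introns of EAF1, an elongation factor partner on the opposite strand, and of METTL6, a tRNA methyltransferase on its own strand. It ran from 6.2 through 10.8 to 15.6 CPM in mock and from 3.8 through 6.0 to 8.8 in arsenite libraries, with mock above arsenite in each of the 3 lines. Its log2 fold change was -0.76 (SE 0.278, edgeR adjusted p = 0.0219). RNU6-387P, in SERBP1, which encodes a ribosome-associated mRNA-binding protein, ran from 9.2 through 15.8 to 26.4 CPM in mock and from 8.8 through 10.9 to 13.6 in arsenite libraries, or -0.63 on the log2 scale (SE 0.218, adjusted p = 0.0165 in edgeR). RNU6-1106P, in LIN28B, ran from 16.9 through 18.8 to 28.5 CPM in mock and from 11.4 through 11.9 to 19.7 in arsenite libraries, or -0.52 on the log2 scale (SE 0.187, adjusted p = 0.0196 in edgeR). Over all libraries the mock and arsenite groups overlapped in each of the 3 rows.

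Each of those 3 calls was lost in 4 of 17 alternatives, DESeq2 among them (adjusted p = 0.0855, 0.0847 and 0.0815 in the order above). Leaving out a single library ended the call of RNU6-1024P for 3 libraries (NES arsenite 1, NLS mock 2 and G3BP1 mock 2). It ended that of RNU6-387P for 3 (NLS mock 1, NLS arsenite 2 and G3BP1 mock 1) and that of RNU6-1106P for 2 (NLS mock 1 and G3BP1 mock 2). The adjusted p reached at most 0.0994, 0.203 and 0.0815. RNU6-1322P, RNU6-199P, RNU6-702P and RNU6-1262P stayed called in all 17 alternatives.

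RNU6-595P was the only member that rose. It lies in an intron of USP15, a deubiquitinase gene, at chr12:62334091-62334197 (minus strand). Mock libraries stood at 9.6 and 6.97 CPM for NES, 6.99 and 6.87 for NLS and 11.5 and 6.43 for G3BP1. Arsenite libraries stood at 16.5 and 12.3 CPM for NES, 9.85 and 14.6 for NLS and 12 and 13.5 for G3BP1. The groups did not overlap within any line, but over all lines the highest mock library lay above the lowest arsenite library. The log2 fold change was 0.72 (SE 0.24, edgeR adjusted p = 0.0122). With DESeq2 its adjusted p was 0.0624, and that of RNU6-711P 0.0566, so neither was called.

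The 28 members not called had log2 fold changes from -0.60 in RNU6-774P and RNU6-68P to 0.53 in RNU6-1208P. The 4 most counted members were among them: RNU6-77P had -0.22 (edgeR adjusted p = 0.103), RNU6-415P -0.23 (0.11), RNU6-81P -0.41 (0.0581) and RNU6-395P -0.06 (0.806). RNU6-395P, which overlaps an exon of POLR2D, stood at 32.3 ± 8.44 CPM in mock and 31.9 ± 8.03 in arsenite libraries (SD, n = 6). None of the 5 members without an opposite-strand host was called. Their median was -0.23, against -0.32 over the 32 with one.

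Within single lines fewer members were called, and all of them fell. In NES 3 of 37 were called, all lower (8.11%, background 20.3% in all and 9.41% lower), namely RNU6-1322P at -1.91, RNU6-711P at -1.12 and RNU6-1262P at -1.08. In NLS 3 were called lower and 0 higher (background 17.8% in all, 8.14% lower and 9.67% higher), with RNU6-199P at -2.01, RNU6-702P at -1.30 and RNU6-531P, in the transcription factor gene ELF2, at -1.38. In G3BP1 RNU6-1322P was called at -1.49 (1 of 37 lower, background 16.4% in all and 7.15% lower). The members had a median of -0.34 in the NES line, -0.37 in the NLS line and -0.19 in the G3BP1 line, against -0.02, -0.01 and 0.01 over all tested rows. DESeq2 called 0 members in NES, 1 in NLS and 0 in G3BP1, where it called 7.65%, 5.32% and 5.71% of all tested rows. The difference of the arsenite effect between lines, tested directly, called 0 members with edgeR (background 0.183%) and 0 with DESeq2 (background 0.00%). At an unadjusted p under 0.05 the edgeR test had 3 members (background 8.37%). RNU6-199P, at -0.77 in NES, -2.01 in NLS and 0.11 in G3BP1, had an adjusted p of 0.287 in that edgeR test.

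Summed over rows, mock lay above arsenite in every library for the members and for all rows with an opposite-strand host. The 37 members together stood at 546 ± 27.1 CPM in mock and 453.8 ± 37.5 in arsenite libraries (SD, n = 6). The lowest mock library, at 518.1 CPM, was just above the highest arsenite library, at 517.7. All 405 U6 pseudogene rows with an opposite-strand host, most of them outside the members, stood at 1041 ± 54.2 and 837 ± 53.2 CPM without overlap. The 324 rows with a same-strand host alone stood at 87.3 ± 6.82 and 84.27 ± 15.3 CPM, and the 542 rows without a host at 197.1 ± 16.3 and 189.3 ± 12.8, both with overlap. RNU6-77P alone held 910 of the 1287 counts of the same-strand class, at 65.39 CPM in mock and 56.73 in arsenite libraries. That sum therefore mostly describes 1 row. In the class without a host, RNU6-415P held 760 of 2928 counts. A difference between these classes was not tested.

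**Figure D4:**
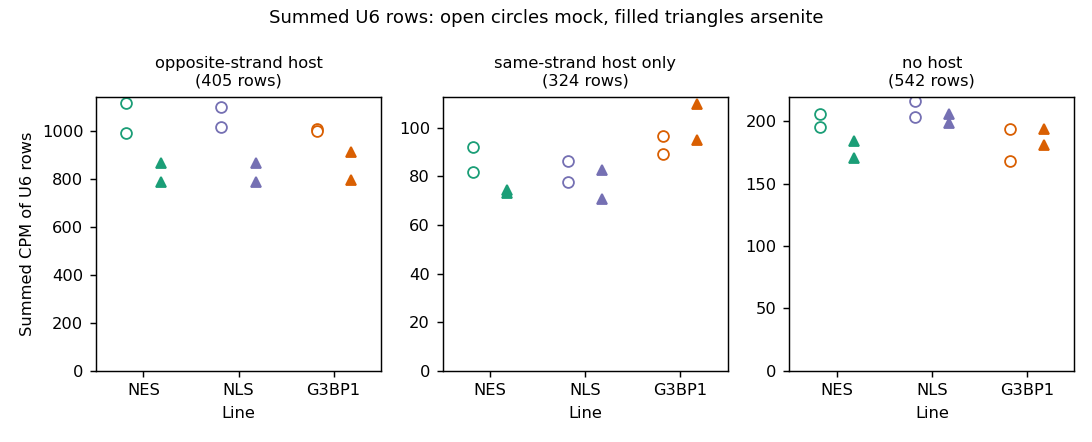
Summed CPM of all U6 pseudogene rows in each library (vertical axes from 0, a different scale per panel) by line, for rows with an opposite-strand host, with a same-strand host only and with none; open circles are mock and filled triangles arsenite libraries. In the first panel the 6 mock libraries lie between 995.4 and 1119 and the 6 arsenite libraries between 786.8 and 914.6, and in the other 2 panels the treatments overlap. RNU6-77P alone held 910 of the 1287 counts behind the second panel.

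The hosts' own rows gave other values than the members. Here too a row name stands for the row and not for a transcript of its strand. These values therefore do not give the level of a host's transcript. Of the 33 rows of opposite-strand hosts, 20 passed the filter on low counts, 5 were called higher after arsenite (25%, background 19.4%) and 0 lower (background 18.6%), with a median log2 fold change of 0.09. The sign was that of the member in 6 of the 20, one of which, ELF2, was close to 0 at -0.00. SRPK2 had 138.5 ± 16 CPM in mock and 140.4 ± 13.7 in arsenite libraries (log2 fold change 0.01, edgeR adjusted p = 0.929), beside the 2.93-fold fall of RNU6-1322P. TAOK1 went from 10.03 ± 3.64 to 21.8 ± 5.53 CPM (log2 fold change 1.11, edgeR adjusted p = 4.94e-06), beside a fall by 0.74 of RNU6-711P on the log2 scale. LUZP1, an actin-associated gene that holds RNU6-514P, rose by 0.89 (edgeR adjusted p = 2.7e-08), and RNU6-514P had 0.44 (adjusted p = 0.19). The rows of TFCP2, GATA6 and USP15 had 15, 64 and 16 counts in all and were not tested.

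Other rows on the members' own strand within the same hosts were counted as well. Such rows, mostly pseudogenes and other short copies, numbered 35 in the hosts of members, and 29 of them, in the hosts of 16 members, passed the filter on low counts. Of the 29, 14 were called lower after arsenite (48.3%, background 18.6%), 1 was called higher (background 19.4%) and 24 had a log2 fold change below 0, with a median of -0.41. The sign was that of the member in 25 of 29 pairs. Members and other rows were both mostly below 0, so many pairs would share a sign without any link. Some hosts also gave several pairs. Across the 16 hosts, the member's log2 fold change and the median of the other rows had a Pearson correlation of 0.64, given as a description: both values share the same 12 libraries, and most rest on few counts.

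**Figure D5:**
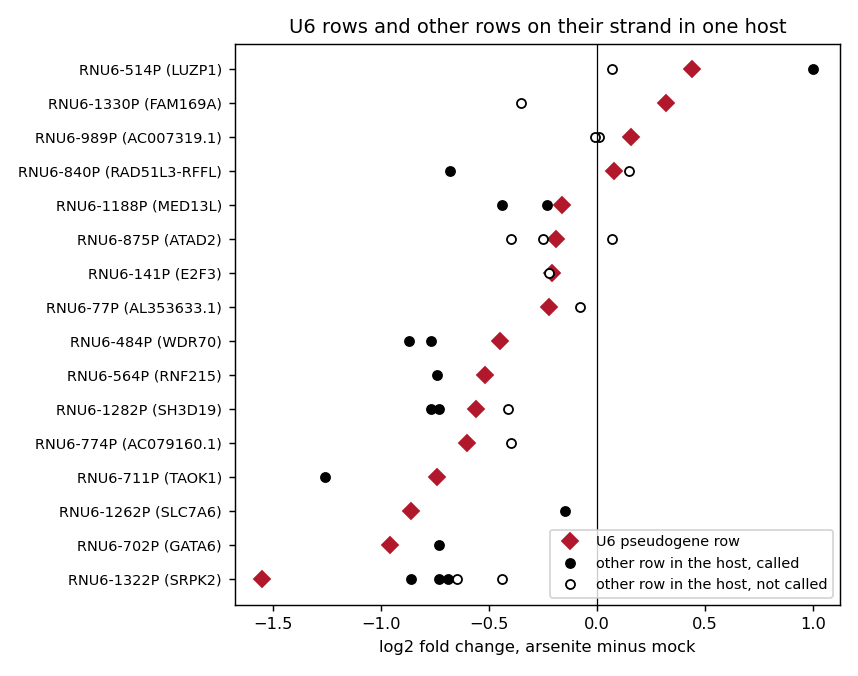
Log2 fold change, arsenite minus mock (horizontal axis), of 16 members (red diamonds) and of 29 other rows on the member's strand within the same host (circles, filled where called), 1 host per line. The other rows run from -1.26 in TAOK1 to 1 in LUZP1, and 24 of 29 lie below 0.

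SRPK2, the host of the member with the largest fall, shows the pattern in 1 gene. Besides RNU6-1322P it holds 5 tested rows on that strand, and all 5 had log2 fold changes below 0. RWDD4P1 fell from 50.8 ± 10.2 to 28.2 ± 4.58 CPM (SD, n = 6, edgeR adjusted p = 1.26e-07). The unnamed row ENSG00000242154 fell from 62.2 ± 9.65 to 37.5 ± 9.07 CPM (adjusted p = 4.17e-07) and ENSG00000270764 from 14.9 ± 3.94 to 9.42 ± 2.85 (adjusted p = 0.0122). RPL36P12 (-0.65, adjusted p = 0.0958) and ENSG00000271482 (-0.44, adjusted p = 0.231) were not called. In the G3BP1 line alone both were above 0, at 0.66 and 0.28. The SRPK2 row itself, on the other strand, had a log2 fold change of 0.01, as given above.

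In TAOK1 a second U6 copy, RNU6-1034P, which is not among the 37, went from 7.16 ± 3.82 to 2.92 ± 1.22 CPM (log2 fold change -1.26, edgeR adjusted p = 0.0056). In GATA6 the row ENSG00000264012 went from 34.6 ± 1.64 to 20.7 ± 4.3 CPM (-0.73, adjusted p = 3.53e-05). In SLC7A6 the row ENSG00000279649 went from 282.1 ± 27.2 to 252.6 ± 30.7 CPM (-0.15, adjusted p = 0.0289). The member of each of these hosts fell too. LUZP1 holds the 1 row called higher. There RNU6-135P, just under the count limit of the rule, rose from 5.02 ± 3.2 to 10.5 ± 4.32 CPM (log2 fold change 1, adjusted p = 0.00632), and RNU6-514P in the same gene had 0.44 (adjusted p = 0.19). Signs differed elsewhere. Beside RNU6-840P at 0.08, ENSG00000273687 was called lower at -0.68 (adjusted p = 0.00331). Beside RNU6-1330P at 0.32, ENSG00000250071 had -0.35 (adjusted p = 0.391). CALCRL had -0.01 beside RNU6-989P at 0.16, and IMPDH1P6 0.07 beside RNU6-875P at -0.19.

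Lines were compared over both treatments, with 4 libraries per line. The joint test called 3 of 37 members (8.11%), against a background of 34.6%, and with DESeq2 it called 1 (background 22.1%). NLS against NES called 0 members with edgeR (background 12.3% in all and 6.78% lower) and 0 with DESeq2 (background 4.81%). At an unadjusted p under 0.05 it had 3 members in edgeR (background 24.0%). G3BP1 against the mean of the other lines called 2 members, both higher (background 29.5% in all and 15.8% higher), and 1 with DESeq2 (background 17.0%). The direction of these calls depended on the scaling and the treatment. With total counts as the only scaling 1 was called higher (background 10.9%) and 4 lower (background 20.6%).

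Within mock libraries alone, G3BP1 against the others called 0 members higher (background 10.6%) and 2 lower (background 8.28%). These were RNU6-199P at -1.10 (edgeR adjusted p = 0.0198) and RNU6-1262P at -0.91 (adjusted p = 0.0481), both among the members that fell after arsenite. Within arsenite libraries alone it called 1 higher (RNU6-77P, background 11.1%) and 0 lower (background 7.57%). The joint test called 2 members in mock libraries alone (RNU6-199P and RNU6-531P, background 22.5%) and 1 in arsenite libraries alone (RNU6-77P, background 21.3%). Member counts were low, and low counts lowered the share of changed rows called in simulated data for the arsenite effect. That simulation changed few rows and held no line differences, so its shares do not carry over to the line tests. The part of depth in these line shares was not tested.

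RNU6-77P was the member whose line difference over both treatments stayed called in all 17 alternatives of the fit to both treatments, but it was not called in mock libraries alone. Its NES libraries stood at 56.7, 67.4, 50.1 and 47.6 CPM and its NLS libraries at 59.0, 58.03, 56.9 and 39.5, mock before arsenite. Its G3BP1 libraries stood at 75.0, 76.2, 81.4 and 64.97 CPM. Of these, 3 lay above every library of the other lines, and the lowest lay below a single NES mock library. G3BP1 exceeded the mean of the others by 0.46 on the log2 scale (SE 0.112, edgeR adjusted p = 4.56e-04), and the joint test of the lines had an adjusted p of 0.00149. In mock libraries alone that difference was 0.33 (SE 0.157, edgeR adjusted p = 0.14, and 0.254 in the joint test), and in arsenite libraries alone 0.59 (SE 0.158, adjusted p = 0.00276).

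The same line difference was seen in its surroundings. The row of the long noncoding host AL353633.1 had 5602 counts in all and a difference of 0.47, with an adjusted p of 1.74e-14 in the joint test. HIGD1AP2, a pseudogene row on the same strand within that host, had 0.46 (adjusted p = 6.32e-08 in the joint test). Neither was called for arsenite: the host had 0.00 (edgeR adjusted p = 0.958) and HIGD1AP2 -0.08 (0.401).

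The other line calls were less firm. RNU6-840P, in the overlapping genes RAD51D and RAD51L3-RFFL, stood at 6.95 ± 3.15 CPM in NES, 12.6 ± 2.83 in NLS and 7.21 ± 1.14 in G3BP1 (SD, n = 4, edgeR adjusted p = 0.0369). RNU6-514P, in LUZP1, stood at 7.28 ± 1.95, 11.9 ± 1.84 and 6.63 ± 2.8 CPM in the same order (adjusted p = 0.042). NLS was the highest line in both. Over the 17 alternatives the adjusted p ran from 0.00819 to 0.35 for RNU6-840P, with the call lost in 10, and from 0.0175 to 0.212 for RNU6-514P, with the call lost in 9. Leaving out 1 library ended the call of RNU6-840P for 8 of 12 libraries, all but NES mock 1, NES arsenite 1, NLS arsenite 2 and G3BP1 mock 1. It ended that of RNU6-514P for 7 of 12, all but NES mock 1, NES arsenite 1, NLS arsenite 1, G3BP1 mock 2 and G3BP1 arsenite 2. RNU6-1106P, in LIN28B, was higher in G3BP1 than in the mean of the others by 0.55 (SE 0.195, edgeR adjusted p = 0.0227), at 21.6 ± 4.59 CPM against 14.4 ± 3.44 in NES and 15.8 ± 4.57 in NLS. That call was lost in 6 alternatives, among them leaving out G3BP1 mock 2, G3BP1 arsenite 1 or G3BP1 arsenite 2, and its adjusted p ran up to 0.24. Neither mock nor arsenite libraries alone gave it (0.37 with an edgeR adjusted p of 0.356, and 0.72 with 0.0656), and RNU6-840P and RNU6-514P were not called by the joint test in either.

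Genes that make and bind U6 RNA were read beside the copies, as rows and with the same limit on strand. Of 22 rows for U6 maturation and the U6 particle, 8 were tested, 1 was called lower (12.5%, background 18.6%) and 0 higher (background 19.4%). The one called was TUT1, the enzyme that adds uridines to the end of U6, at 78.5 ± 17.6 CPM in mock and 63.5 ± 11.5 in arsenite libraries (log2 fold change -0.31, edgeR adjusted p = 0.0112). SSB, the La protein that binds fresh polymerase III transcripts, had -0.10 (adjusted p = 0.456). Of 18 rows for RNA polymerase III and snRNA promoter factors, 9 were tested and 4 were called, all higher (44.4%, background 19.4% higher and 38.0% in all). They were the polymerase III subunits POLR3C (1.45, adjusted p = 8.27e-04), POLR3F (1.18, adjusted p = 2.25e-04) and POLR3G (0.33, adjusted p = 0.0236) and the TATA-binding protein TBP (1.37, adjusted p = 5.11e-05). The intact U6 genes, at totals of 0 to 2 counts, give no transcript level to set beside these rows.

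Copies outside the 37 gave like values. Of the other 1234 U6 pseudogene rows 35 passed the filter, 10 were called lower (28.6%, background 18.6%) and 2 higher (5.71%, background 19.4%) after arsenite, with a median of -0.21. These passed a filter that favours rows high in some group, so they do not stand for all 1234. The same backgrounds apply to the other families, taken at 120 or more counts. Of 15 rows of 7SK copies 2 were called lower (13.3%) and 0 higher, with a median of -0.11. Among 19 rows of 7SL copies 6 were called lower (31.6%) and 1 higher (5.26%), with a median of -0.30. Among 4 rows of Y RNA copies 2 were called lower and 0 higher (median -0.43), and among 14 of other small nuclear RNA copies 3 lower (21.4%) and 1 higher (7.14%), with a median of -0.29. No test compared the U6 copies with these families.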

How the data were processed

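RNA of whole Huh-7.5 cells was sequenced in 12 libraries, 2 for each of 3 lines under mock treatment or 0.5 mM arsenite. The authors deposited raw counts per gene in 1 table with 16 columns, and 4 columns matched no sample and were not used. Per the submitters' processing notes, the tools were Trim Galore, Subread, featureCounts and edgeR, with build GRCh38.p13. The annotation and the strand setting of the counting are not given in the sources used here.

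Counts were tested with edgeR 4.0.16 (R 4.3.3), with TMM scaling, a low-count filter (minimum count 10, minimum total 15) and the quasi-likelihood F test. An additive model of line and treatment (8 residual degrees of freedom) gave the average arsenite effect, and a model with 1 mean per group (6 degrees of freedom) gave all other contrasts. A standard error is the log2 fold change divided by the root of F. P-values were adjusted over all 13108 tested rows and called under 0.05. CPM was computed from these counts with TMM factors. DESeq2 1.42.0, other scalings, no filter, a replicate block and leaving out each library were alternatives. Simulated data had 13108 rows, with 100 changed per fold size, and no line differences. On them the average arsenite fit called 47% at 1.5-fold and 85% at 2-fold. Among rows with a mean under 20 counts per library it called 18.2% (n = 44) and 64.3% (n = 42). Replicate numbers did not pair libraries (correlations of deviations -0.0492, -0.0101 and 0.00578 over 6521 genes).

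Hosts, positions and sequences were taken from GENCODE 29 (GRCh38), in which all 37 members were matched by name. The sequences themselves are not reported here. Hosts were counted only where they span the whole row. All members were counted. Those described in full were the 5 with the highest totals, those called for arsenite or lines, and the rows next to the count limit. The members, the lists and this rule were chosen with earlier results of these data known.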

Additional observations from a re-analysis of the deposited data

Results flagged for a closer look

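RNU6-105P, the row that the rule leaves out, differed in its arsenite effect between lines (edgeR quasi-likelihood test, adjusted p = 0.0421). It lies in an exon of ZNF638 on the opposite strand. NES libraries stood at 22.1 and 23.2 CPM in mock and 7.2 and 6.2 after arsenite, a log2 fold change of -1.74. NLS libraries stood at 18.6 and 10.7 in mock and 22.7 and 16.6 after arsenite (0.42), and G3BP1 libraries at 19.2 and 13.8 in mock and 18 and 12.7 after arsenite (-0.11). The fall was seen in both NES libraries and in neither other line. DESeq2 gave an adjusted p of 1 for the difference, the fit without a low-count filter 0.132, and leaving out 1 library at a time 0.0126 to 0.188.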

How the results depend on the processing

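The median arsenite effect of the 37 members stayed below 0 in all alternatives run, at -0.38 to -0.24 with 1 library left out and -0.31 under total-count scaling. Leaving out 1 library gave 6 to 10 members called lower and 1 in each case called higher after arsenite, 0 to 3 called in NES, 1 to 3 in NLS, 0 to 3 in G3BP1 and 0 for the difference between lines. It gave 1 to 5 members for the joint line test, 0 to 1 for NLS against NES and 1 to 4 for G3BP1 against the others. DESeq2 called fewer: 4 lower and 0 higher on average, 0 in NES, 1 in NLS, 0 in G3BP1, 1 in the joint line test and 1 for G3BP1 against the others, and it called a smaller share of all tested rows too (27.9% against 38.0% on average, 7.65% against 20.3% in NES, 22.1% against 34.6% jointly). An adjusted p under 0.01 left 4 lower and 0 higher. Without the low-count filter, 7 were called lower and 1 higher on average, 1 in NES, 2 in NLS, 0 in G3BP1, 1 in the joint line test and 1 for G3BP1 against the others. With total counts as the only scaling, 11 were called lower and 1 higher on average and 5 in NLS. For G3BP1 against the others that scaling moved the median of all tested rows from -0.01 to -0.12 and called 5 members, 1 higher and 4 lower, against 2 higher and 0 lower. There RNU6-77P had 0.35. Arsenite libraries alone gave 1 member for the joint line test and 1, higher, for G3BP1 against the others, and mock libraries alone gave 2 and 2, the latter both lower. The cause of these changes was not tested. Where no share of all tested rows is printed for a setting, its count describes the members only and is not compared with the background. The replicate numbers share no origin in the labels, and with the replicate number as a block 8 members were called lower, 1 higher and 3 for lines, the same members as without it. Requiring 240 or more counts, chosen after seeing the data, left 5 members, of which 40% had an opposite-strand host. With a median of 154 counts over 12 libraries, depth limits each comparison of a single member.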
